A study of Homo sapiens with 48 samples.

Results

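CCL3, CCL4 and 3 chemokine receptors, CCR1, CCR10 and CXCR4, were followed in AMO1 cells while IRE1 or XBP1 was silenced. They are 5 of the 58302 genes in the count table, found by gene symbol. CCL3 was chosen by its low level after Dox-induced silencing of IRE1. CCL4, its neighbour on chromosome 17, and the receptors were added to it by name. The changes of CCL3 and of its copy in the shIRE1 clones, and every shIRE1 response at 72 h, are therefore given as descriptions without a test.

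AMO1 is a human multiple myeloma cell line. The 48 libraries came from 4 clones with doxycycline-inducible shRNA, shIRE1 clone 1, shIRE1 clone 3, shXBP1 clone 1 and shXBP1 clone 18, each a single clone. Doxycycline (Dox) was added at 0.2 µg/ml and RNA was taken after 0, 24, 48 and 72 h, with 3 biological replicates in separate flasks for each clone and time. All comparisons in time are with the same clone at 0 h. No clone with a control shRNA was analysed here, so within a clone the effects of silencing, of Dox itself and of time in culture cannot be told apart.

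CCL3 (MIP-1 alpha) and CCL4 (MIP-1 beta) are small secreted chemokines that attract monocytes, T cells and other leukocytes. Myeloma plasma cells are a known source of CCL3, which promotes osteoclast formation and is linked to myeloma bone disease. CCR1 is a receptor for CCL3 and also binds CCL5. CXCR4 binds CXCL12 and holds plasma cells in the bone marrow, and CCR10 binds CCL27 and CCL28 and is typical of plasma cells that home to mucosa. All 3 receptors signal through inhibitory G proteins and are switched off by arrestins. IRE1, encoded by ERN1, is a sensor of unfolded protein in the endoplasmic reticulum whose RNase activity splices the mRNA of the transcription factor XBP1.

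CCL3 and CCL4 each have a near-identical copy that is a row of its own in the table, CCL3L3 and CCL4L2. In GENCODE 44 on GRCh38, CCL3 (ENSG00000277632) lies on the reverse strand at chr17:36088256-36090169 and CCL4 (ENSG00000275302) on the forward strand at chr17:36103827-36105621, with 13657 bases between them. CCL3L3 (ENSG00000276085) lies at chr17:36194869-36196758 on the reverse strand, 104699 bases from CCL3. CCL4L2 (ENSG00000276070) lies at chr17:36210924-36212878 on the forward strand. The coding sequences of CCL3 and CCL3L3 are shown because they decide how far a short read can tell the gene from its copy. Bases that differ between the 2 sequences are in capitals.
CCL3: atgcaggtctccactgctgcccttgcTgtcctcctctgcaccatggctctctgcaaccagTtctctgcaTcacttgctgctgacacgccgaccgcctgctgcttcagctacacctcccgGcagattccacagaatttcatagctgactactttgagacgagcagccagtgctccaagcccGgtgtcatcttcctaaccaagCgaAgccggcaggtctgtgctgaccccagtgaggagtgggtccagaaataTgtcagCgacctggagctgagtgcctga
CCL3L3: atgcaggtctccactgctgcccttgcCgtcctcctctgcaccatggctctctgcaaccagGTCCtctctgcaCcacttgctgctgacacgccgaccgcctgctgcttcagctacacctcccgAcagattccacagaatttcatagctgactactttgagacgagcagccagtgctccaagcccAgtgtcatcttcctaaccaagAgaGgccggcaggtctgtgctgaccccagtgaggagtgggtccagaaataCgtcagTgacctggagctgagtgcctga

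The CCL3 and CCL3L3 coding sequences, 279 and 282 bases long, differed by 9 substitutions and a gap of 3 bases and were 95.7% identical. Reads were 50 bases long. Of the 731 windows of that length in the CCL3 transcript, 72 (9.85%) occurred in a CCL3L3 transcript too. For CCL4, 144 of 611 windows (23.6%) were shared with CCL4L2. No window of CCR1, CCR10 or CXCR4 was found on the same strand in a transcript of another gene. Only the strand of each transcript was searched, so overlaps on the other strand do not enter these counts. According to the methods of the study, a read was counted for a gene where it mapped to its exons without ambiguity. The share of reads that this left out was not analysed here.

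CCL3 also overlaps an antisense RNA, CCL3-AS1 (ENSG00000277089, AC243829.4 in the table), at chr17:36072866-36090134 on the forward strand. The genes share 1879 bases, 1115 of them exonic in both. The library kit keeps the strand, but use of strand in counting is not stated, and without it reads of CCL3 and CCL3-AS1 cannot be told apart. CXCR4 (ENSG00000121966) lies on the reverse strand at chr2:136114349-136119177 and overlaps no other gene. CCR1 (ENSG00000163823, chr3:46201711-46208313, reverse strand) lies inside CCR3 on the other strand, with 0 exonic bases in common. CCR10 (ENSG00000184451, chr17:42678889-42683917, reverse strand) shares 463 exonic bases with CNTNAP1 on the other strand.

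The promoters of CCL3 and CCL3L3 are shown because both genes were at low levels in the same libraries. These are the 250 bases before the start of each gene in RefSeq on GRCh38.p14, on the reverse strand, at chr17:36090144-36090393 for CCL3 and chr17:36196759-36197008 for CCL3L3. Matches to the motifs searched are in capitals.
CCL3 promoter: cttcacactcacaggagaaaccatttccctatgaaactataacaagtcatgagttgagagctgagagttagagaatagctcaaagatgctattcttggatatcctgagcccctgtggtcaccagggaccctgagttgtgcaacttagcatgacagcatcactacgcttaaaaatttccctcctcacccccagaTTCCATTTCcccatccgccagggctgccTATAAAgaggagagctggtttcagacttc
CCL3L3 promoter: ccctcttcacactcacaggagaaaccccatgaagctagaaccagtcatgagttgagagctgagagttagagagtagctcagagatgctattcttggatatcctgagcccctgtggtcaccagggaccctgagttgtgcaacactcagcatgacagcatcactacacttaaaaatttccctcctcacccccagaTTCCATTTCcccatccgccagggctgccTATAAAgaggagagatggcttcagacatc

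Both held TATAAA 29 bases before the start, and both held GAAANNGAA, a pair of IRF half-sites, read on the opposite strand 57 bases before the start. On either strand, TATAAA occurred in 10.7% and GAAANNGAA in 6.88% of the 35116 promoters of the same length. Neither promoter held TGANTCA (AP-1, in 6.57% of promoters), GGAANNGAA (ETS-IRF, 6.58%), GGGANTTTC (NF-kB, 1.12%) or TGACGTCA (CRE, 1.65%). The CXCR4 promoter held TATAAA on both strands, at overlapping positions 30 and 32 bases before the start, and that of CCR1 held none of the 6. Promoters of CCL4 and CCR10 were not analysed here.

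Total counts ranged from 19177855 to 40767202 per library, with a median of 30776246, so that 1 count at the lowest depth was 0.0521 CPM (counts per 1000000 counts of the library). ERN1 stood at 142 to 149 CPM at 0 h and 106 to 109 at 72 h in shIRE1 clone 1, and at 406 to 440 against 132 to 135 in clone 3. XBP1 stood at 146 to 164 against 32.8 to 34.2 CPM in shXBP1 clone 1 and at 155 to 168 against 30.8 to 40.5 in clone 18. All 8 plasma cell markers were above 1 CPM in every group. The 8 monocyte and macrophage markers summed to 0.227 to 1.02 CPM per library and the 5 B cell markers to 1.89 to 15.7 CPM. The 8 T and NK cell markers summed to 105 to 487 CPM, with 3 or 4 of them above 1 CPM in a group. Most of that sum was CD4, at 98.0 to 474 CPM, while CD3D stayed at or below 0.0412 CPM. The library labelled shXBP1 clone 18, 72 h, replicate 3 stood apart from its group. Its log2 values correlated more closely with shXBP1 clone 1 at 72 h (r = 0.994 across genes) than with its own group (r = 0.983). Changes of the members and CCL3L3 from 0 to 72 h in shXBP1 clone 18 are given with and without it. Other results include it unless stated. In shIRE1 clone 3 at 24 h, replicate 1 was marginally closer to clone 1 (r = 0.992) than to its own group (r = 0.991).

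Before Dox, the abundance of CCL3 differed strongly between clones of the same shRNA. Per kilobase of transcript, its mean level at 0 h was 53.3 CPM in shIRE1 clone 1, 246 in shIRE1 clone 3, 48.1 in shXBP1 clone 1 and 494 in shXBP1 clone 18. It was lower in shIRE1 clone 1 than in clone 3 by 2.19 ± 0.30 on the log2 scale (estimate ± SE). That value is a description, because the levels of these clones at 0 h were part of the choice of CCL3. Between the shXBP1 clones it was 3.37 ± 0.32 higher in clone 18 (adjusted p = 1.66e-11). Tests here and below were edgeR quasi-likelihood tests with Benjamini-Hochberg adjustment over all genes, called at an adjusted p under 0.05. The comparison of the shIRE1 clones at 0 h called 40.6% of all genes tested and that of the shXBP1 clones 51.3%. CXCR4 stood at 154, 160.1, 166 and 76.2 CPM per kilobase in the same order of clones, so CCL3 was above CXCR4 in the 2 clones with high CCL3 and below it in the others. CCR10 was at 1.54 to 5.16 CPM per kilobase, CCL4 at 0.0305 to 4.13 and CCR1 at 0.0210 to 0.0532. At 0 h, CXCR4 was 1.11 higher in shXBP1 clone 1 than in clone 18 on the log2 scale (adjusted p = 3.48e-19) and differed by −0.04 between the shIRE1 clones (adjusted p = 0.604).

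During IRE1 silencing CCL3 RNA was far lower by 48 h in both shIRE1 clones, and nearly gone in clone 3. In shIRE1 clone 1, CCL3 was at 39.4, 36.3 and 49.0 CPM at 0 h, 26.2, 30.9 and 46.4 at 24 h, 4.26, 3.47 and 3.18 at 48 h, and 3.87, 4.30 and 4.57 at 72 h. In clone 3 it was at 209, 178 and 189 CPM at 0 h, 27.1, 29.9 and 40.5 at 24 h, 1.52, 0.775 and 1.13 at 48 h, and 2.05, 2.18 and 1.51 at 72 h. The libraries of 24 h overlapped those of 0 h in clone 1 and lay below all of them in clone 3, and in both clones all libraries of 48 and 72 h lay below all earlier ones. In bulk RNA, fewer cells that express a gene and less RNA per cell cannot be told apart.

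**Figure D1:**
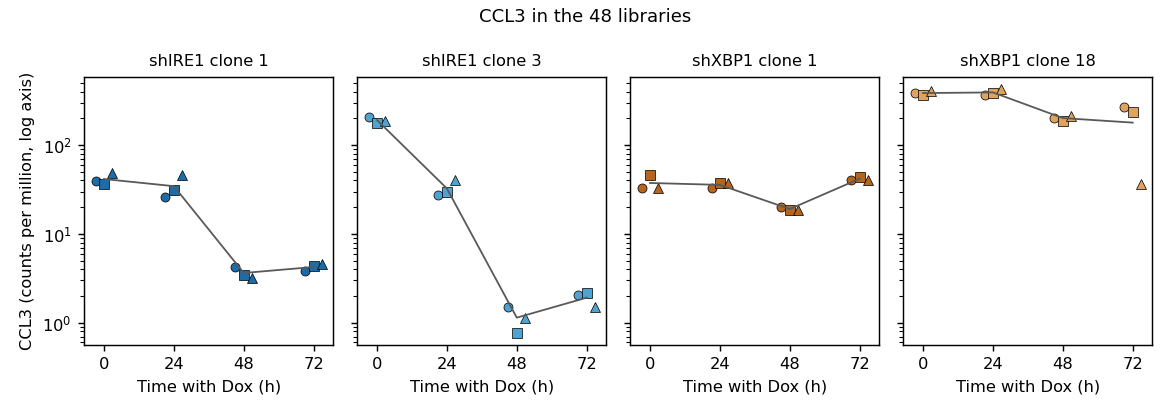
CCL3 in CPM on a log axis against hours with Dox, 1 panel per clone, with a point for each library, a marker shape for each replicate and a line through the means. In the shIRE1 clones the means go from 41.5 and 192 CPM at 0 h to 3.64 and 1.14 CPM at 48 h, and in the shXBP1 clones every mean is above 19 CPM, with 1 library of clone 18 at 36.7 CPM at 72 h.

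Relative to 0 h, the log2 differences in CCL3 were −0.42 ± 0.15 at 24 h, −3.65 ± 0.19 at 48 h and −3.43 ± 0.19 at 72 h in shIRE1 clone 1. In clone 3 they were −2.67 ± 0.14, −7.60 ± 0.20 and −6.79 ± 0.19, which are levels 6.35-fold, 194-fold and 110-fold lower than at 0 h. These values chose CCL3 and carry no test. Averaged over both shIRE1 clones at 72 h, CCL3 ranked second by size of fall among the 12012 genes with a mean log2 CPM above 1, at −5.11 on the log2 scale. The first place was held by its own antisense RNA, CCL3-AS1, at −5.79. Just after CCL3 stood LTF at −3.79 (lactoferrin, an iron-binding secreted protein) and MAGT1 at −3.45 (a magnesium transporter and oligosaccharyltransferase subunit). The order was not the same in each clone. In clone 1 MAGT1 was at −3.58, lower than CCL3, and in clone 3 at −3.32. LTF was at −1.38 in clone 1 and −6.19 in clone 3.

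From 24 to 48 h the log2 difference in CCL3 was −3.23 ± 0.19 in shIRE1 clone 1, a level 9.36-fold lower, and −4.93 ± 0.20 in clone 3, a level 30.5-fold lower. Also as a description, the log2 difference from 0 h was less negative in clone 1 than in clone 3 by 2.24 at 24 h, 3.94 at 48 h and 3.35 at 72 h. By 24 h the mean of ERN1 went from 425 to 152 CPM in clone 3 and from 146 to 135 CPM in clone 1, while that of CCL3 went from 192 to 32.5 CPM and from 41.5 to 34.5 CPM. The part of ERN1 in the difference between clones was not tested.

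Silencing of XBP1 was accompanied by a smaller dip of CCL3 at 48 h. CCL3 in shXBP1 clone 1 was at 33.2, 46.0 and 33.2 CPM at 0 h, 32.5, 37.4 and 37.1 at 24 h, 20.1, 18.4 and 18.7 at 48 h, and between 40.8 and 43.9 at 72 h. All 3 libraries of 48 h lay below all others of this clone, and the other times overlapped. CCL3 fell at 48 h by 1.05 ± 0.12 on the log2 scale (95% interval −1.31 to −0.79, adjusted p = 8.95e-05). The changes at 24 h (−0.15, adjusted p = 0.38) and 72 h (0.07, adjusted p = 0.672) did not pass. CCL3 then rose by 1.12 ± 0.12 from 48 to 72 h (0.86 to 1.38, adjusted p = 0.00595), a call that was lost without replicate 2 of 48 h (1.11, adjusted p = 0.0552). The step from 24 to 48 h, at −0.90 ± 0.12, did not pass with edgeR (adjusted p = 0.068). It passed with DESeq2 (−0.91, adjusted p = 1.31e-08) and with edgeR without the filter on low counts (−0.92, adjusted p = 1.28e-06). Against 0 h, 26.7%, 32% and 33.6% of all genes were called in this clone after 24, 48 and 72 h. From 48 to 72 h edgeR called 2 genes of 16603 tested (0.012%), CCL3 being 1 of them, and DESeq2 called 15. From 24 to 48 h edgeR called 0 (0%), with 1414 genes at an unadjusted p under 0.05, and DESeq2 called 29.

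CCL3 in shXBP1 clone 18 was at 384, 369 and 403 CPM at 0 h, 369, 382 and 425 at 24 h, 204, 186 and 215 at 48 h, and 268, 233 and 36.7 at 72 h. The libraries of 48 h lay below all of those at 0 and 24 h, and the lowest value at 72 h was in the library that stood apart. With all 12 libraries no change against 0 h passed, at −0.02 for 24 h (adjusted p = 0.995), −0.98 ± 0.44 for 48 h (adjusted p = 0.224) and −1.17 ± 0.44 for 72 h (adjusted p = 0.108). Without that library the log2 changes were −0.02 (adjusted p = 0.93), −0.98 (adjusted p = 6.44e-07) and −0.68 (adjusted p = 8.22e-05). The step from 24 to 48 h was −0.96 in both fits, with an adjusted p of 0.768 with the library and 1.53e-05 without it. From 48 to 72 h the change without it was 0.29 (adjusted p = 0.849). With all libraries edgeR called 1.59%, 5.78% and 9.96% of genes at 24, 48 and 72 h. Without the library it called 4.78%, 12.9% and 7.57%. From 24 to 48 h it called 0 genes with the library, 1088 having an unadjusted p under 0.05, and 0.425% without it, and DESeq2 called 45 with it. From 48 to 72 h it called 0 genes with the library, 1457 having an unadjusted p under 0.05, and 0 without it, with 909 at that p, and DESeq2 called 3 with it.

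The response of CCL3 at 48 h differed between shXBP1 clones 1 and 18 by −0.06 on the log2 scale (95% interval −0.92 to 0.80, adjusted p = 0.946) and at 24 h by −0.11 (−0.94 to 0.73, adjusted p = 0.902), which did not pass. At 72 h the response was 1.26 ± 0.42 higher in clone 1 than in clone 18 (adjusted p = 0.023), and 0.75 higher without the library that stood apart (adjusted p = 0.00827). The comparison of responses between the shXBP1 clones called 17.1%, 24.1% and 24.6% of genes after 24, 48 and 72 h. As a description, the mean response of the shIRE1 clones differed from that of the shXBP1 clones by −1.47 on the log2 scale at 24 h, by −4.62 at 48 h and by −4.56 at 72 h.

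CCL3L3 was a minor part of the signal except in shXBP1 clone 18. At 0 h it was at 0.366, 0.521 and 0.347 CPM in shIRE1 clone 1 and at 4.13, 3.22 and 3.70 CPM in shIRE1 clone 3. The same copy was in shXBP1 clone 18 at 47.4, 45.1 and 48.9 CPM at 0 h, 22.0, 17.5 and 20.8 at 48 h, and 28.2, 24.4 and 0.183 at 72 h. The copy thus stood far higher in that clone, apart from the library that stood apart at 72 h. Of the counts of CCL3 and CCL3L3 together, CCL3L3 made up 1.01% in shIRE1 clone 1, 1.88% in shIRE1 clone 3, 1.35% in shXBP1 clone 1 and 10.9% in shXBP1 clone 18 at 0 h. In the library that stood apart its share was 0.495%, against 9.54% and 9.48% in the other libraries of that group. The share was not the same in every clone. Of the CCL3 windows 9.85% were shared in sequence, and the part of such reads in the CCL3L3 counts was not tested.

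**Figure D2:**
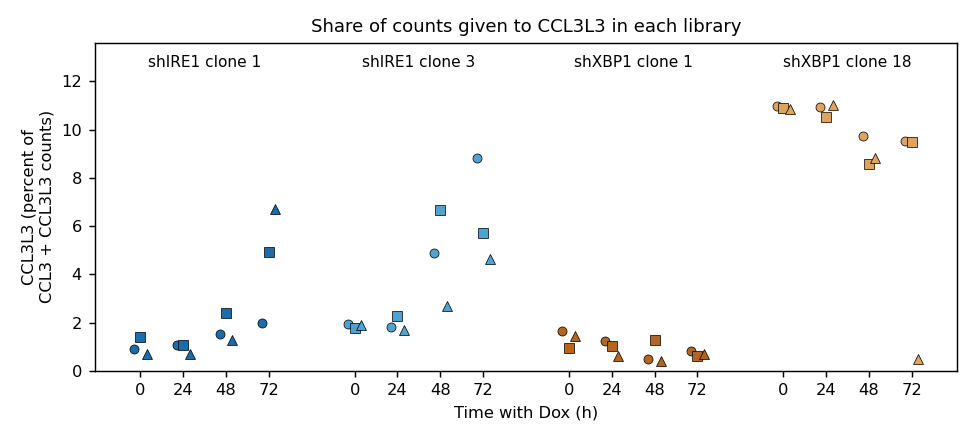
Share of CCL3L3 in the summed counts of CCL3 and CCL3L3, in percent, against hours with Dox. The clones stand side by side in a single panel, with a point for each library and a marker shape for each replicate. The mean share is 10.9% at 0 h in shXBP1 clone 18 and under 2% in the other clones at 0 h, and it is 4.54% and 6.40% in the shIRE1 clones at 72 h, where few counts of either gene are left.

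From 24 to 48 h the log2 difference in CCL3L3, as a description, was −2.17 in shIRE1 clone 1 and −3.55 in shIRE1 clone 3. CCL3L3 fell in shXBP1 clone 1 by 1.89 ± 0.39 at 48 h (adjusted p = 0.00403) and did not pass at 72 h (−0.82, adjusted p = 0.076). Its log2 changes in shXBP1 clone 18 were −1.28 at 48 h (adjusted p = 0.309) and −1.499 after 72 h (adjusted p = 0.177) with all libraries, and did not pass. Without the library that stood apart CCL3L3 fell there by 1.28 (adjusted p = 7.26e-07) and by 0.90 (adjusted p = 7.79e-05).

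CCL3-AS1 had its lowest means at the same times as CCL3. Its mean level went from 8.28 CPM at 0 h to 3.68, 0.405 and 0.525 CPM at 24, 48 and 72 h in shIRE1 clone 1, and from 18.9 to 3.34, 0.0658 and 0.113 CPM in clone 3. Means in shXBP1 clone 1 went from 8.11 to 4.52, 3.92 and 6.20 CPM, and in clone 18 from 40.8 to 28.0, 18.2 and 15.8 CPM. It was lowest at 48 h in 3 of the clones and at 72 h in shXBP1 clone 18. The value at 72 h there included 5.77 CPM in the library that stood apart, without which the mean was 20.8 CPM and the lowest mean was that of 48 h. Its counts were 5.76% to 21.5% of those of CCL3 in the group means. Because the genes overlap, these values carry no test.

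CCL4 was scarce except in shXBP1 clone 18. In shIRE1 clone 1 the 3 libraries of a time held 2, 2, 0 and 0 counts of CCL4 in sum at 0, 24, 48 and 72 h, too few for a comparison. In shIRE1 clone 3 the libraries of 0 h held 11, 3 and 9 counts, 0.416, 0.129 and 0.320 CPM, and the sums at 24, 48 and 72 h were 2, 2 and 0. The ratio to 0 h in that clone was 0.0697 at 24 h (95% interval 0.00797 to 0.282), 0.0723 at 48 h (0.00826 to 0.292) and, as a description, 0 at 72 h. These intervals cover counting error only. Those of 24 and 48 h lie below 1. At 0 h, CCL4 in shIRE1 clone 3 was 13.8 times its level in clone 1 (counting interval 3.42 to 121) and CCL4L2 was 9.02 times its level (2.10 to 81.3).

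CCL4 in shXBP1 clone 18 was at 2.76, 2.94 and 2.47 CPM at 0 h, 1.83, 2.07 and 1.80 at 24 h, 0.912, 0.589 and 0.823 at 48 h, and 0.862, 1.02 and 0.183 at 72 h. Each later time lay below all libraries of 0 h, and those of 48 h lay below all of 24 h. The log2 change was −1.86 ± 0.35 after 48 h (95% interval −2.61 to −1.12, adjusted p = 0.00772), −2.10 ± 0.35 after 72 h (−2.86 to −1.34, adjusted p = 0.00303) and −0.56 ± 0.31 after 24 h, which did not pass (adjusted p = 0.463). CCL4 therefore fell at 48 and 72 h, where 5.78% and 9.96% of genes were called. Without the library that stood apart the changes were −0.56 (adjusted p = 0.0485), −1.87 (adjusted p = 1.05e-05) and −1.60 (adjusted p = 0.000133). Without replicate 2 of 48 h the change at 48 h was −1.69 and did not pass (adjusted p = 0.0569). CCL4L2 had means of 2.33, 1.64, 0.97 and 0.931 CPM over the 4 times, with 1.15, 1.62 and 0.0261 CPM in the libraries of 72 h. Its change at 48 h was −1.29 (adjusted p = 0.192) with all libraries and −1.29 (adjusted p = 0.00143) without the library that stood apart. CCL4 in shXBP1 clone 1 had 9, 15, 5 and 10 counts in sum at the 4 times and did not pass the filter on low counts. At 0 h the 3 libraries held 9 counts there and 218 in clone 18. CCL4 passed the filter over all 48 libraries through clone 18, so the difference between these clones was not tested.

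CCR1, a receptor for CCL3, rose from a very low level in both shIRE1 clones by 48 h. In shIRE1 clone 1 it was at 0.183, 0.145 and 0.0315 CPM at 0 h, 0.251, 0.399 and 0.364 at 24 h, 0.459, 0.768 and 0.407 at 48 h, and 0.547, 0.371 and 0.535 at 72 h. In clone 3 it was at 0.227, 0 and 0 CPM at 0 h, 0.249, 0.248 and 0.460 at 24 h, 1.29, 0.941 and 1.44 at 48 h, and 0.927, 0.761 and 0.739 at 72 h. Every library after 0 h lay above all libraries of 0 h in both clones. The sums were 11, 32, 51 and 37 counts in clone 1 and 6, 31, 113 and 71 counts in clone 3. The counts at 0 h were 5, 5 and 1 in clone 1 and 6, 0 and 0 in clone 3, so CCR1 passed the filter on low counts through its later libraries. CCR1 rose by 2.07 ± 0.46 on the log2 scale at 48 h in clone 1 (95% interval 1.11 to 3.03, adjusted p = 0.000582) and by 3.74 ± 0.57 in clone 3 (2.52 to 4.97, adjusted p = 4.19e-05). With no filter these changes were 2.08 (adjusted p = 2.51e-05) and 3.76 (adjusted p = 5.39e-16). At 24 h the changes were 1.34 ± 0.50 (adjusted p = 0.0274) and 1.89 ± 0.73 (adjusted p = 0.0464). The call at 24 h was lost in clone 1 without replicate 3 of 0 h (0.89, adjusted p = 0.138), replicate 2 of 24 h (1.20) or replicate 3 of 24 h (1.28). In clone 3 it was lost without replicate 2 (1.38) or 3 (1.26) of 0 h or replicate 2 (2.07) or 3 (1.53) of 24 h. At 72 h the changes, as descriptions, were 1.86 and 3.18.

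These changes stand against wide changes in the transcriptome. In shIRE1 clone 1 61.4% of all genes tested were called at 24 h and 65.4% at 48 h, and in clone 3 46.2% and 63.2%. From 24 to 48 h CCR1 rose by 1.85 ± 0.40 in clone 3 (adjusted p = 0.00227), and in clone 1 the step of 0.73 did not pass (adjusted p = 0.141). CCR1 in shXBP1 clone 1 had 6, 5, 7 and 10 counts in sum at the 4 times and did not pass the filter. In shXBP1 clone 18 it was at 0.156, 0.123 and 0.143 CPM at 0 h, 0.28, 0.414 and 0.343 at 24 h, 0.342, 0.279 and 0.294 at 48 h, and 0.287, 0.281 and 0.0261 at 72 h. Its log2 changes there of 1.26 (adjusted p = 0.312), 1.07 (adjusted p = 0.304) and 0.36 (adjusted p = 0.746) did not pass, and without the library that stood apart they were 1.27 (adjusted p = 0.0804), 1.07 (adjusted p = 0.123) and 0.96 (adjusted p = 0.273). The difference between the shIRE1 and the shXBP1 response was 1.23 at 24 h (adjusted p = 0.213) and 2.21 ± 0.76 after 48 h (adjusted p = 0.0121). At 48 h it was 1.74 with shIRE1 clone 1 against shXBP1 clone 1 and was not called (adjusted p = 0.235), and 2.69 with shIRE1 clone 3 against shXBP1 clone 18 (adjusted p = 0.019). Over all 48 libraries CCR1 passed the filter through later libraries of clones other than shXBP1 clone 1, so this comparison is limited by low counts. With no filter the difference over both clones of each shRNA was 1.23 at 24 h (adjusted p = 0.25) and 2.23 after 48 h (adjusted p = 0.00342). The comparison of the shRNAs called 38.7% of all genes at 24 h and 56.9% at 48 h. The 5 B cell markers were read as a sum only, with 1 of them above 1 CPM at 0 h and 2 at 48 h in both shIRE1 clones. Their sum per library went from 2.93 to 3.66 CPM at 0 h to 14.7 to 15.27 CPM at 48 h in shIRE1 clone 1 and from 1.89 to 1.99 CPM to 14.3 to 15.7 CPM in clone 3. It was 2.40 to 2.92 CPM at 0 h and 2.55 to 3.28 CPM at 48 h in shXBP1 clone 1, and 4.86 to 5.27 and 5.93 to 6.26 CPM in clone 18. None of the 8 monocyte and macrophage markers was above 1 CPM in any group. The part of other cell types or states in the CCR1 values was not tested.

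**Figure D3:**
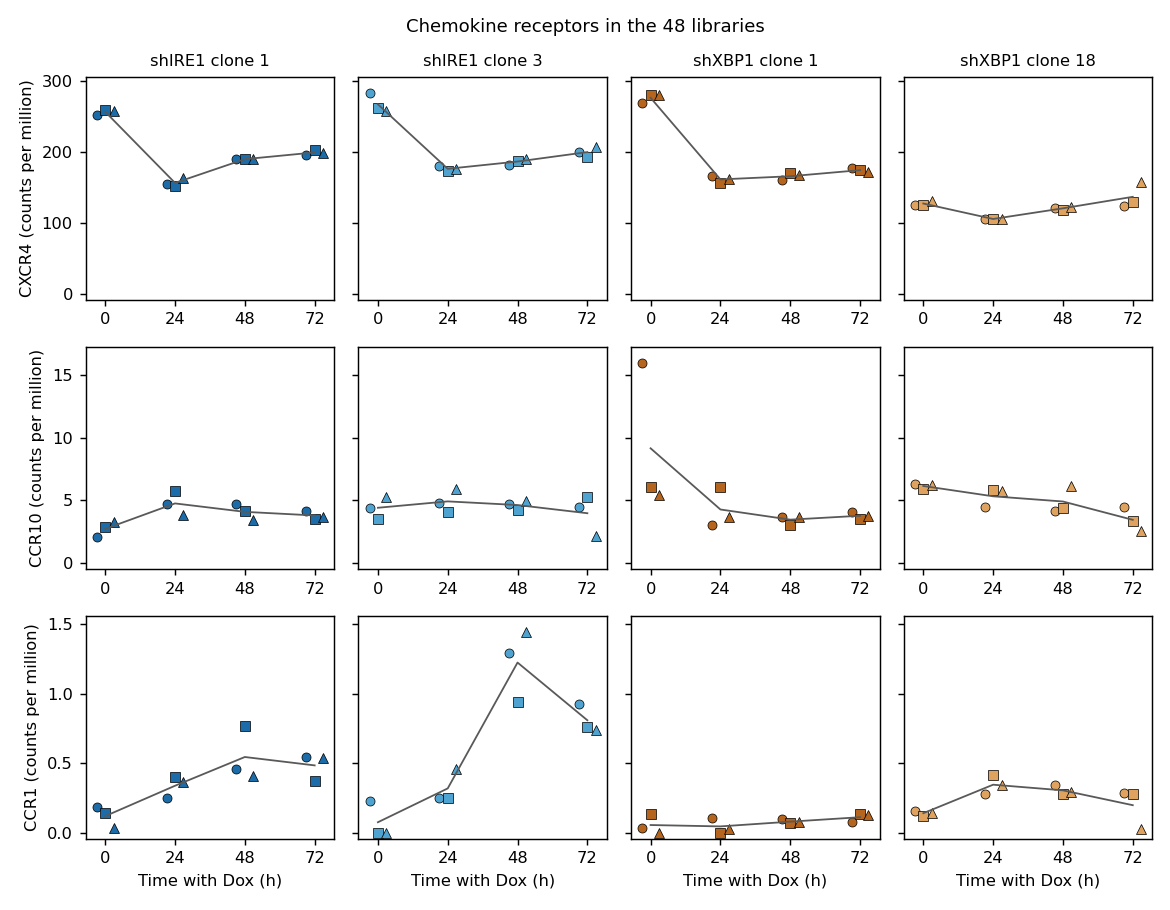
CXCR4, CCR10 and CCR1 in CPM on linear axes against hours with Dox, 1 row per receptor and 1 column per clone, with a point for each library, a marker shape for each replicate and a line through the means. CXCR4 is lower at 24 h than at 0 h in every clone, CCR10 has a single library at 15.97 CPM in shXBP1 clone 1 at 0 h, and CCR1 reaches 0.545 and 1.22 CPM on average at 48 h in the shIRE1 clones.

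CXCR4, the most abundant of the receptors, fell within 24 h in both shIRE1 clones and in shXBP1 clone 1. In shIRE1 clone 1 it was at 253, 259 and 258 CPM at 0 h, 155, 151 and 163 at 24 h, 189, 190 and 190 at 48 h, and 196, 203 and 199 at 72 h. In shIRE1 clone 3 it was at 283, 261 and 257 CPM at 0 h, 180, 173 and 175 at 24 h, 182, 187 and 190 at 48 h, and 200, 192 and 207 at 72 h. All later libraries lay below all libraries of 0 h in both clones. The log2 change was −0.87 ± 0.04 at 24 h (adjusted p = 2.97e-13) and −0.58 after 48 h (adjusted p = 7.65e-11) in clone 1, and −0.71 (adjusted p = 1.85e-08) and −0.69 (adjusted p = 1.06e-08) in clone 3. From 24 to 48 h CXCR4 rose again by 0.29 ± 0.04 in clone 1 (adjusted p = 7.53e-06), while the step in clone 3 was 0.03 (adjusted p = 0.718). That step called 30.3% of all genes in clone 1 and 34.6% in clone 3. The response of CXCR4 differed between shIRE1 clones 1 and 3 by −0.16 at 24 h (adjusted p = 0.107) and 0.09 after 48 h (adjusted p = 0.363), which did not pass, in a comparison that called 28.2% and 30.8% of all genes. At 72 h the differences from 0 h, as descriptions, were −0.51 and −0.57.

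In shXBP1 clone 1, CXCR4 was at 269, 281 and 280 CPM at 0 h, 166, 156 and 161 at 24 h, 160, 170 and 167 at 48 h, and 177, 174 and 171 at 72 h. It fell by 0.85 (adjusted p = 2.53e-07), 0.81 (adjusted p = 2.63e-07) and 0.75 (adjusted p = 3.65e-07) on the log2 scale at the 3 times, and no later library overlapped those of 0 h. In shXBP1 clone 18, which had the lowest CXCR4 before Dox, it was at 126, 125 and 131 CPM at 0 h, 105, 106 and 105 at 24 h, 120, 119 and 122 at 48 h, and 123, 129 and 157 at 72 h. The libraries of 24 h lay below those of 0 h and the later ones approached or overlapped them, with 157 CPM in the library that stood apart. The log2 change at 24 h was −0.31 ± 0.08 (adjusted p = 0.067 with that library, 0.000541 without it). At 48 h it was −0.12 (adjusted p = 0.412 with the library, 0.0768 without it). At 72 h it was 0.05 with the library (adjusted p = 0.734) and −0.07 without it. The response was more negative in shXBP1 clone 1 than in clone 18 by 0.51 after 24 h (adjusted p = 4.32e-06), by 0.67 after 48 h (adjusted p = 1.5e-08) and by 0.77 after 72 h (adjusted p = 5.31e-10). Without the library that stood apart these differences, clone 1 minus clone 18, were −0.53, −0.70 and −0.69.

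Taken over both clones of each shRNA, the response of CXCR4 was more negative after shIRE1 than after shXBP1 by 0.22 ± 0.05 at 24 h (adjusted p = 0.00117) and 0.17 ± 0.05 after 48 h (adjusted p = 0.00643). This difference rested on shXBP1 clone 18. With shIRE1 clone 1 against shXBP1 clone 1 it was −0.04 at 24 h (adjusted p = 0.744) and 0.21 at 48 h, in the opposite direction (adjusted p = 0.0197).

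CCR10 was at 2.09 to 6.31 CPM in all libraries but 1. In shIRE1 clone 1 it was at 2.09, 2.86 and 3.25 CPM at 0 h, 4.71, 5.77 and 3.80 at 24 h, 4.69, 4.12 and 3.462 at 48 h, and 4.18, 3.56 and 3.66 at 72 h. All later libraries lay above those of 0 h. CCR10 rose there by 0.64 ± 0.17 at 24 h (adjusted p = 0.00287) and 0.43 ± 0.17 after 48 h (adjusted p = 0.0335) on the log2 scale. The call at 48 h was lost without replicate 1 (0.29) or 2 (0.47) of 0 h and without replicate 1 (0.32) or 2 (0.44) of 48 h. In shIRE1 clone 3 it was at 4.43, 3.52 and 5.30 CPM at 0 h, 4.77, 4.11 and 5.89 at 24 h, 4.69, 4.26 and 4.95 at 48 h, and 4.47, 5.29 and 2.18 at 72 h. All times overlapped, with log2 changes of 0.03 (adjusted p = 0.924) and −0.11 (adjusted p = 0.708) at 24 and 48 h.

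CCR10 in shXBP1 clone 1 was at 15.97, 6.07 and 5.42 CPM at 0 h, 3.07, 6.11 and 3.66 at 24 h, 3.67, 3.07 and 3.66 at 48 h, and 4.07, 3.54 and 3.73 at 72 h. The level of 15.97 CPM in replicate 1 at 0 h was the highest in the series. The log2 changes were −1.17 ± 0.37 (adjusted p = 0.0342), −1.48 ± 0.38 (adjusted p = 0.0124) and −1.37 ± 0.38 (adjusted p = 0.0161). Without that replicate they were −0.47 (adjusted p = 0.174), −0.79 (adjusted p = 0.0342) and −0.67 (adjusted p = 0.057), so that the call held at 48 h only. The calls were also lost at 24 h without replicate 1 (−0.96) or 3 (−1.07) of that time, at 48 h without replicate 2 of that time (−1.40, adjusted p = 0.0529) and at 72 h without replicate 2 (−1.32) or 3 (−1.36) of that time. CCR10 in shXBP1 clone 18 was at 6.31, 5.89 and 6.26 CPM at 0 h, 4.48, 5.79 and 5.72 at 24 h, 4.14, 4.43 and 6.17 at 48 h, and 4.44, 3.34 and 2.58 at 72 h. It fell at 72 h by 0.89 ± 0.20 (adjusted p = 0.0152), or by 0.71 without the library that stood apart (adjusted p = 0.0309). The call was lost without replicate 1 (−0.86, adjusted p = 0.0587) or replicate 3 (−0.86, adjusted p = 0.0609) of 0 h.

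Between the shRNAs the response of CCR10 differed by 1.04 ± 0.29 at 24 h (adjusted p = 0.0038) and 1.08 ± 0.29 after 48 h (adjusted p = 0.00191), higher after shIRE1. With shIRE1 clone 3 against shXBP1 clone 18 alone the difference was 0.29 (adjusted p = 0.645) and 0.26 (adjusted p = 0.636). The difference over both clones of each shRNA includes the library of shXBP1 clone 1 with 15.97 CPM at 0 h. A fit of that difference without this library is not given here. CNTNAP1, the gene that overlaps CCR10 on the other strand, had means of 31.1, 45.7, 67.3 and 64.9 CPM over the 4 times in shIRE1 clone 1 and of 37.0, 56.0, 62.2 and 59.0 CPM in clone 3. In shXBP1 clone 1 it had 41.7, 49.0, 44.3 and 46.99 CPM and in clone 18 50.3, 58.4, 55.3 and 51.1 CPM. Its part in the CCR10 values was not tested.

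**Figure D4:**
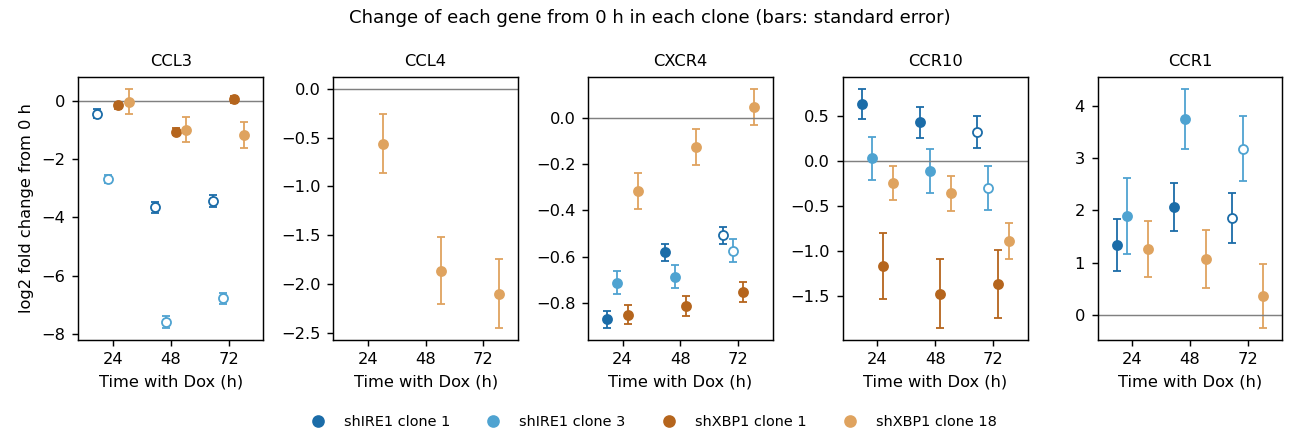
Log2 fold change against 0 h for each member, with hours with Dox on the horizontal axis and a colour for each clone. Bars are standard errors of the edgeR estimate, open points are descriptions with no test, and CCL4 is drawn for shXBP1 clone 18 only. CCL3 reaches −3.65 and −7.60 in the shIRE1 clones at 48 h, CCR1 reaches 2.07 and 3.74, and the values of CXCR4 lie between −0.87 and 0.05.

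Other genes of the chemokine system were examined in lists of ligands, receptors and intracellular partners. Of 41 other chemokine ligands, 3 passed the filter on low counts in both shIRE1 clones and 38 did not. At 48 h, 2 of the 3 rose and 1 fell in shIRE1 clone 1, and 2 rose and 0 fell in clone 3, where 65.4% and 63.2% of all genes were called. Their median log2 change was 1.504 and 0.46, beside 0.03 and 0.02 over all genes. CCL5, a ligand of CCR1, was at 53.0, 55.5 and 52.7 CPM at 0 h and 199.6, 221 and 216 CPM at 48 h in shIRE1 clone 1. It rose by 1.83 ± 0.05 on the log2 scale there (adjusted p = 4.85e-16) and by 0.46 ± 0.07 in clone 3 (adjusted p = 6.71e-05), and thus moved opposite to CCL3. In shXBP1 clone 1 it changed by −0.12 at 48 h (adjusted p = 0.208), and in clone 18 it fell by 0.42 (adjusted p = 0.0339). XCL1, which attracts dendritic cells through XCR1, rose from means of 0.218 and 0.259 CPM by 1.504 (adjusted p = 0.000737) and 1.44 (adjusted p = 0.00531) at 48 h in the shIRE1 clones. It had fewer than 10 counts in each of their libraries of 0 h and passed the filter through later ones. CXCL16, which binds CXCR6, fell by 0.71 in shIRE1 clone 1 (adjusted p = 0.00673) and did not pass in clone 3 (−0.31, adjusted p = 0.192).

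Of these ligands only XCL1 was called in shXBP1 clone 1. It rose there at 24 h by 1.69 (adjusted p = 0.00531) and did not pass at 48 h (1.08, adjusted p = 0.0626).

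Of 20 other chemokine receptors, 3 passed the filter in each shIRE1 clone. At 48 h, 1 rose and 1 fell in clone 1, and 2 rose and 0 fell in clone 3, beside 65.4% and 63.2% of all genes called, with medians of −0.02 and 1.25. ACKR3, an atypical receptor that takes up CXCL12, the ligand of CXCR4, was at 0.22, 0.434 and 0.221 CPM at 0 h and 1.05, 1.19 and 0.937 CPM at 48 h in shIRE1 clone 1. In clone 3 it was at 0.227, 0.0429 and 0.178 CPM and then 1.48, 0.996 and 0.971 CPM. The values of 48 h lay above those of 0 h in both. In clone 3 each library of 0 h held fewer than 10 counts of ACKR3, which passed the filter through later ones. ACKR3 rose by 1.68 ± 0.33 (adjusted p = 0.000178) and 2.68 ± 0.38 (adjusted p = 1.73e-05) in the shIRE1 clones, while it did not pass in the shXBP1 clones at 48 h (0.48, adjusted p = 0.273, and −0.09, adjusted p = 0.909). CXCR3, a receptor of interferon-induced chemokines, fell by 1.75 ± 0.17 in shIRE1 clone 1 (adjusted p = 3e-08) and by 0.90 in shXBP1 clone 1 (adjusted p = 0.0187). In shIRE1 clone 3 it was at 0.36 (adjusted p = 0.139) and in shXBP1 clone 18 at 0.08 (adjusted p = 0.891). CXCR6, the receptor of CXCL16, rose by 1.25 in shIRE1 clone 3 (adjusted p = 0.00229) and not in clone 1 (−0.02, adjusted p = 0.969).

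Among 25 intracellular partners of chemokine receptors, 11 rose and 9 fell of 23 tested in shIRE1 clone 1 at 48 h, and 13 rose and 7 fell of 24 in clone 3, with medians of 0.19 and 0.32. Of all genes, 65.4% and 63.2% were called there. In shXBP1 clones 1 and 18, 6 rose and 5 fell, and 0 rose and 1 fell, of 24 each, beside 32% and 5.78% of all genes. ARRB1, an arrestin that stops receptor signalling, rose by 1.66 (adjusted p = 1.02e-09) and 1.96 (adjusted p = 8.03e-09) in the shIRE1 clones, and by 0.63 in shXBP1 clone 1 (adjusted p = 0.0213). GRK5, a receptor kinase, rose by 0.78 and 0.79. PIK3CG, the catalytic subunit of a PI3-kinase activated by G proteins, fell by 0.64 and 0.86 in the shIRE1 clones. Its log2 change at 48 h was −0.35 in shXBP1 clone 18 (adjusted p = 0.0105) and 0.24, a rise, in shXBP1 clone 1 (adjusted p = 0.00859). GNAI3, an inhibitory G protein alpha subunit, fell by 0.49 and 0.82 in the shIRE1 clones.

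Of 12 adhesion and homing genes, 9 were tested in each shIRE1 clone. At 48 h, 7 rose and 1 fell in clone 1 and 5 rose and 3 fell in clone 3, with medians of 0.40 and 0.20, beside 65.4% and 63.2% of all genes called. ICAM3 rose by 1.33 and 1.44, ICAM1 by 0.95 and 0.79, and ITGAL, the alpha chain of the integrin LFA-1 that binds both, by 0.88 and 0.81. ITGA4, the alpha chain of the integrin VLA-4, fell by 0.82 and 0.94. In shXBP1 clone 1, 3 rose and 0 fell of 9, and in clone 18 0 rose and 0 fell of 10 at 48 h, beside 32% and 5.78% of all genes. Among 13 secreted factors of myeloma bone disease, 2 rose and 1 fell of 3 tested in shIRE1 clone 1, and 2 rose and 2 fell of 4 in clone 3, against the same 65.4% and 63.2% of all genes. TNFSF13B (BAFF) rose by 0.97 (adjusted p = 0.049) and 2.63 (adjusted p = 5.21e-05), from fewer than 10 counts in each library of 0 h, and VEGFA fell by 0.83 (adjusted p = 1.28e-11) and 1.63 (adjusted p = 2.17e-11). IGF1 rose by 0.84 in shIRE1 clone 1 (adjusted p = 0.00062) and fell by 0.63 in shIRE1 clone 3 (adjusted p = 0.0106). It also rose by 0.70 in shXBP1 clone 1 (adjusted p = 0.00875) and did not pass in shXBP1 clone 18 (−0.34, adjusted p = 0.509). TNFRSF11B, or osteoprotegerin, a decoy receptor that holds back osteoclasts, rose by 2.62 ± 0.52 in shIRE1 clone 3 (adjusted p = 0.000459). It did not pass the filter on low counts in shIRE1 clone 1 or in the shXBP1 clones. The call rests on that clone alone, and its counts per library are not given here.

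The genes most like each member were named by the correlation of mean log2 CPM over the 16 groups, among 12009 genes. These are descriptions without a test, since the groups share clones and libraries. For CCL3 they were CCL3-AS1 (AC243829.4, r = 0.985), CPEB4 (r = 0.980) and EHBP1L1 (r = 0.973). The CCL4 pattern was closest to KCNA2 (r = 0.971), MON1B (r = 0.971) and SCPEP1 (r = 0.970). For CCR1 they were STAT3 (r = 0.962), NLRC5 (r = 0.949) and BTBD9 (r = 0.949), and for CXCR4 they were YBX3 (r = 0.924), HNRNPA1 (r = 0.898) and AC106730.1 (r = 0.888). CCR10 was closest to MFSD12 (r = 0.909) and CTSD (r = 0.900). Between the members, CCL3 and CCL4 had r = 0.835 over the 16 groups, and CCL3 and CCR1 had r = −0.591.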

How the data were processed

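RNA from 48 AMO1 libraries was profiled by the authors with a stranded mRNA kit and single-end 50-base reads. The methods of the study name GRCh38.p10 and GENCODE 27, and counting of reads that map to exons without ambiguity. The submitters' processing notes name GSNAP, R 4.1.3, edgeR 3.32.1 and limma 3.46.0 and list the builds GRCh37 and hg19. The deposited table held raw counts for 58302 genes, and a second deposited table held log2 CPM for 18401 genes. Positions and transcripts were taken from GENCODE 44 on GRCh38, which the gene identifiers match.

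For each clone, genes were filtered with filterByExpr (minimum count 10, total 15), scaled by TMM and tested with edgeR 4.0.16 (glmQLFTest, R 4.3.3) over its 12 libraries, with Benjamini-Hochberg adjustment over all genes tested. Genes tested numbered 17154, 17204, 16603 and 16860. Differences between clones and shRNAs came from 1 model of all 48 libraries. CPM is the count divided by the library total and multiplied by 1000000. The members and lists were chosen with earlier results of these data known. Planned tests of CCL3 between the shIRE1 clones and from 24 to 48 h there are given as descriptions, and those of CCL4 between the shXBP1 clones are left out. Of the 5 members, 4 passed the filter in each shIRE1 clone (not CCL4), 3 in shXBP1 clone 1 (not CCL4 or CCR1) and 5 in shXBP1 clone 18. From each list up to 4 genes were named, those with the largest mean change at 48 h that passed in the same direction in both shIRE1 clones, and for each member the 3 genes with the highest correlation among genes with a mean log2 CPM above 1. A gene named by this rule is not reported here. The other tested genes of the lists of ligands, receptors and bone disease factors were named after their values were seen. Alternatives were DESeq2 1.42.0, limma 3.58.1 on the deposited log2 CPM, RLE factors, no filter, 6 libraries, all 48 libraries, a replicate block and each library left out. Replicate numbers did not pair the libraries: in 0 of 12 comparisons was every correlation of deviations above 0.1 (−0.410 to 0.250). The fits were tested on simulated data.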

Additional observations from a re-analysis of the deposited data

Results flagged for a closer look

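These results were flagged because the response to Dox differed between groups by a test of the difference itself. The response of CCL3 was higher in shXBP1 clone 1 than in clone 18 by 1.26 on the log2 scale at 72 h. This value includes the library of shXBP1 clone 18 that stood apart. Between the shRNAs, shIRE1 minus shXBP1, the response of CCR10 differed by 1.04 at 24 h and 1.08 at 48 h, that of CCR1 by 2.21 at 48 h and that of CXCR4 by −0.22 at 24 h and −0.17 at 48 h. CCR1 passed the filter on low counts there through later libraries of clones other than shXBP1 clone 1. Between the shXBP1 clones, clone 1 minus clone 18, the response of CXCR4 differed by −0.51, −0.67 and −0.77 after 24, 48 and 72 h, and that of CCR10 by −1.11 at 48 h. Without the library that stood apart the CXCR4 differences were −0.53, −0.70 and −0.69. The CCR10 values of shXBP1 clone 1 include the library with 15.97 CPM at 0 h.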

How the results depend on the processing

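Of 243 alternative fits of a tested response to Dox, 226 kept their side of the threshold, 7 lost a call and 10 gained one. Of 224 that left out a library, 198 kept their side, 21 lost a call and 5 gained one. No called response changed direction, while of the responses not called in either fit 1 of 95 and 10 of 100 changed sign. Low counts limit CCR1 and CCL4. The cause of the changes below was not tested.

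Without the filter, CCL3 passed in shXBP1 clone 18 at 48 h (−0.97) and 72 h (−1.16), and for the step from 24 to 48 h in shXBP1 clones 1 (−0.92) and 18 (−0.97). CCL4 passed for that step in clone 18 (−1.31), CXCR4 there at 24 h (−0.30), and CCR10 for the difference between the shXBP1 clones at 24 h (−0.90) and at 0 h between the shIRE1 (−0.65) and shXBP1 clones (0.58), while the CXCR4 difference between shRNAs at 48 h did not (−0.16). With DESeq2, CCL3 passed for the step in shXBP1 clone 1 (−0.91) and CXCR4 in clone 18 at 24 h (−0.31), and CCR1 in shIRE1 clone 1 at 24 h did not (1.34). With 6 libraries, CCL3 in clone 18 at 48 h (−0.99), CCL4 (−0.56) and CXCR4 (−0.31) there at 24 h passed, and CCR10 in shXBP1 clone 1 at 24 h (−1.17) and in clone 18 at 72 h (−0.89) did not. With all 48 libraries, CCL3 in clone 18 at 48 h (−0.98) and 72 h (−1.17) and CXCR4 there at 24 h (−0.31) passed, and in shIRE1 clone 1 CCR1 at 24 h (1.34) and CCR10 at 24 h (0.64) and 48 h (0.43) did not. With the replicate block, CCR10 in shXBP1 clone 1 at 24 h did not pass (−1.07, adjusted p = 0.0681), and the genes of the 6 lists called in clone 18 were 1 at 48 h and 5 at 72 h. The block changed no other call of a member.

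With single clones, shIRE1 clone 1 against shXBP1 clone 1 and then shIRE1 clone 3 against shXBP1 clone 18, the difference for CCL3 was −0.30 and −2.64 at 24 h, −2.62 and −6.61 at 48 h, and −3.52 and −5.60 at 72 h. For the receptors at 72 h it was 1.08 and 2.83 for CCR1, 1.68 and 0.61 for CCR10, and 0.23 and −0.60 for CXCR4. The first pair gave 1.74 for CCR1 at 48 h and −0.041 for CXCR4 at 24 h, neither called, and reversed CXCR4 at 48 h (0.21). The second gave 0.29 and 0.26 for CCR10 at 24 and 48 h, neither called.

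With a library left out, values ranged from 1.10 to 1.18 for CCL3 from 48 to 72 h in shXBP1 clone 1, where the call was lost without replicate 2 of 48 h (1.11, adjusted p = 0.0552). In shXBP1 clone 18 they were −1.03 to −0.92 for CCL3 at 48 h, −1.58 to −0.68 at 72 h and −1.01 to −0.90 from 24 to 48 h, and −0.62 to −0.50 for CCL4 at 24 h, −1.98 to −1.69 at 48 h and −1.42 to −1.13 from 24 to 48 h. CCL3 at 72 h there passed without replicate 1 of that time as well (−1.58, adjusted p = 0.0383). They were 0.89 to 1.70 and 1.26 to 2.07 for CCR1 at 24 h in shIRE1 clones 1 and 3, and 0.29 to 0.56 for CCR10 at 48 h in shIRE1 clone 1. For CCR10 in shXBP1 clone 1 they were −1.53 to −0.47, −1.76 to −0.79 and −1.64 to −0.67 at 24, 48 and 72 h, and in clone 18 at 72 h −1.12 to −0.71. CXCR4 in clone 18 at 24 h was at −0.33 to −0.28. Without the library that stood apart, the CXCR4 difference between the shIRE1 clones at 24 h was −0.17 and called. In 3 cases no value could be had because a group was left with 0 counts.

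The genes of the 6 lists called were 14 in shXBP1 clone 1 at 24 h and 0, 2 and 9 in clone 18 at 24, 48 and 72 h. Of all genes, 26.7% were called in the first comparison and 1.59%, 5.78% and 9.96% in those of clone 18. With 6 libraries they were 7, 3, 13 and 0. In clone 18 they were 2, 7 and 17 without the filter and 2, 7 and 20 with all 48 libraries. With a library left out they ranged from 8 to 14 in clone 1, and from 0 to 3, 0 to 11 and 0 to 12 in clone 18, with 3, 11 and 11 without the library that stood apart. Without that library 4.78%, 12.9% and 7.57% of all genes were called in clone 18. The share of all genes called in the other fits is not given here, so their counts are no result about the lists.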
